A study of Mus musculus with 8 samples.

Results

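The constitutive proteasome subunits are the genes of the core particle and the regulatory particle that dividing and resting cells alike use to degrade ubiquitin-tagged proteins. They were taken as all probe sets of the array whose only annotated gene symbol starts with Psma, Psmb, Psmc or Psmd and a digit, without the immunoproteasome genes Psmb8, Psmb9 and Psmb10. This gave 45 probe sets for 35 genes, of 12488 probe sets in all and 8251 genes named by a single symbol. They fell into 7 core alpha, 7 core beta, 6 ATPase and 14 lid and base genes, and Psmc3ip, which matched by its symbol alone. Psmc3ip encodes a meiotic recombination protein and is no proteasome subunit. Psmd5, Psmd9 and Psmd10 encode assembly chaperones of the base, and by the symbol rule they are counted among the subunits throughout. Gene expression was measured in the liver of 8 female Ames dwarf mice (df/df), each on its own Affymetrix U74Av2 array, a 1-colour oligonucleotide array. The mice ate pelleted food without restriction and were aged 24 to 26 months at death. Such dwarf mice make no growth hormone or prolactin and no thyrotropin. There was 1 group, with no other genotype or diet analysed here, so the values describe how the subunits differed from liver to liver. The livers are numbered as in the sample titles, and the numbers carry no order.

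The proteasome is a barrel of stacked rings with a cap at its ends. Alpha subunits form the outer rings and the gate, and beta subunits form the inner rings and carry the proteolytic sites. The ATPases of the cap unfold substrates and push them into the barrel, and the other cap subunits bind ubiquitin chains and remove them. Under interferon, Psmb8, Psmb9 and Psmb10 take the places of the catalytic subunits Psmb5, Psmb6 and Psmb7. Liver cells rely on this system for regulated protein turnover.

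The arrays correlated with each other at a Pearson r of 0.907 to 0.973 over the 6211 probe sets tested. Median signals ranged from 156 in liver 3 to 181 in liver 8. For the labelled tissue, all 9 hepatocyte markers on the array were above the floor in all 8 livers, with Alb, albumin, at 25310 to 37059. A gene was tested when the mean log2 signal of a probe set was above the median of all probe sets, at a signal of 162, and its brightest tested probe set then stood for it. Of the 35 genes, 32 passed, with 38 probe sets. The other 3 were dim on their only probe set. Psmc4, an ATPase, had signals of 18.6 to 131, Psmd2, a scaffold of the base, 26.7 to 113, and Psmc3ip 4.10 to 17.0. Detection calls were not used here, so such signals could not be told from background. Psmb1, Psmb4 and Psmc5 also had dim probe sets beside a bright one, among them a Psmb4 probe set at 0.7 to 11.4 whose companion averaged 4068.

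In these livers the subunits had somewhat narrower ranges than all tested genes, which were not matched to them in signal. Their mean signals ran from 188 (Psmd10) to 5471 (Psma3), and the typical subunit differed 1.52-fold between its highest and lowest liver, against 1.61-fold for all 4819 tested genes. Of the 32 subunits, 16 ranged less than 1.5-fold, against 36.3% of all tested genes, and 2 more than 2-fold, against 21.3%. The median SD over livers was 0.19 on the log2 scale, against 0.23 for all tested genes. Each variance was also set against the typical variance of probe sets of like signal, with a one-sided chi-square test and Benjamini-Hochberg adjustment over all 6211 probe sets. Relative to the typical SD at like signal, the median SD was 0.855 for the subunits and 0.911 for all tested genes, a small difference. No subunit varied more than typical, against 11.3% of all tested probe sets, and 2 did so at an unadjusted p under 0.05, against 18.4%. By the limma variance test 0 of 32 passed, with 0 at an unadjusted p under 0.05, against 0% of all probe sets after adjustment and 6.84% before. In the opposite direction, 0 of 32 varied less than typical, against 0% of all probe sets, and 4 did so at an unadjusted p under 0.05, against 10.9%. These 4 were Psmb3, Psmd7, Psmd10 and Psmb5. The test for lower variance found few of the changed probe sets in simulated data, so its count of 0 says little about how steady a subunit was.

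**Figure D1:**
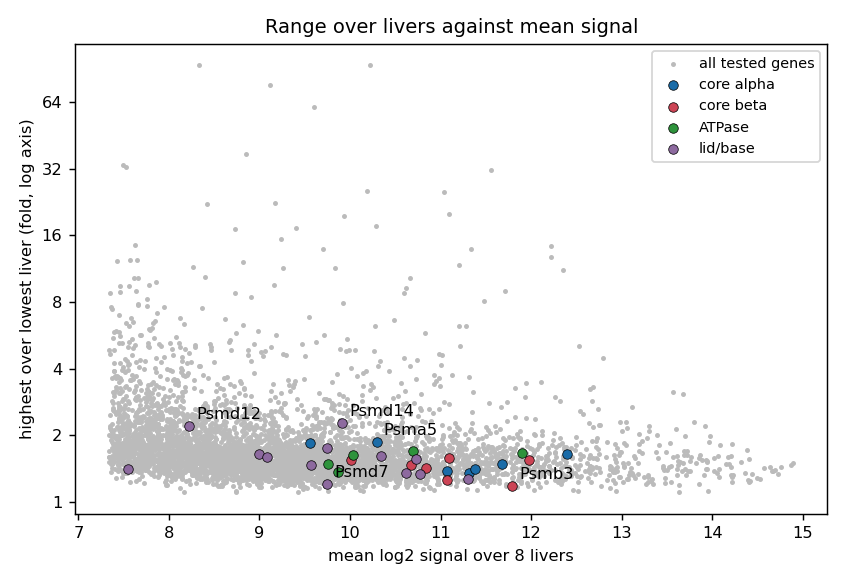
Ratio of the highest to the lowest liver (log axis) against mean log2 signal for 4819 tested genes (grey) and the 32 tested subunits by class (coloured). The subunits lie between 1.18-fold (Psmb3) and 2.27-fold (Psmd14), with a median of 1.52-fold against 1.61-fold for all tested genes.

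The 7 core alpha subunits had the highest median signal of the classes, 2555, and ranged from 765 for Psma1 to 5471 for Psma3. Core beta subunits had a median of 2150, ATPases of 1062 and lid and base subunits of 872. Probe sets differ in how well they bind, so these class levels are no measure of relative transcript numbers. The median range was 1.48-fold for alpha, 1.47-fold for beta, 1.63-fold for ATPase and 1.57-fold for lid and base subunits. All 7 beta subunits had an SD under the typical value for their signal, against 4 of 7 alpha, 4 of 5 ATPase and 8 of 13 lid and base subunits and 58.9% of all tested genes. These counts use the brightest probe set of each gene, and the dimmer one of Psmb5 had an SD 1.065 times the typical one. Genes of a class are not replicates, and these differences between classes were not tested.

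**Figure D2:**
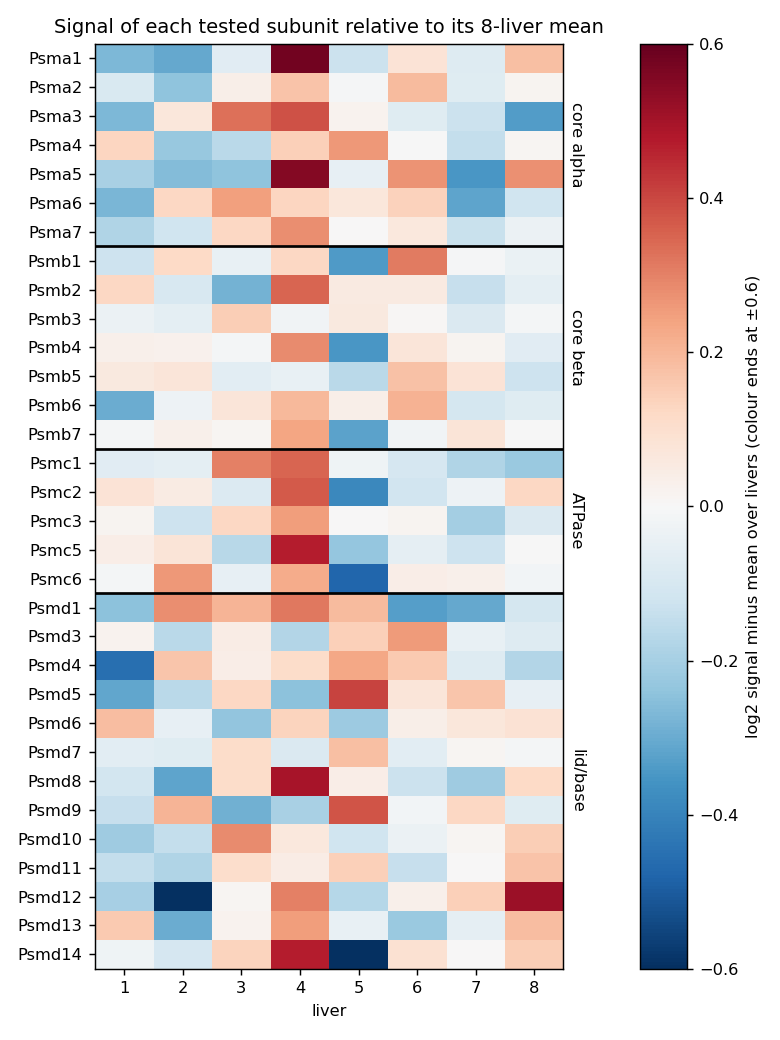
Log2 signal of each of the 32 tested subunits in each liver minus its mean over the 8 livers, grouped by class (red above, blue below the mean). Liver 4 is above the mean for 26 of 32 subunits, and liver 5 is lowest for 8, among them Psmd14, Psmc6 and Psmb4.

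Among the core alpha subunits, which form the gated outer rings, Psma5 and Psma1 had the widest ranges. Psma5 had signals of 1096, 1046, 1060, 1838, 1214, 1513, 985 and 1519 in livers 1 to 8, a range of 1.87-fold. Psma1 had 623, 608, 718, 1121, 688, 796, 713 and 852, a range of 1.84-fold. Both were highest in liver 4, followed by liver 8 and then liver 6, and the pair correlated over the 8 livers at r = 0.883. Psma3 ran from 4281 in liver 8 to 7036 in liver 4, and Psma7 from 1893 in liver 1 to 2603 in liver 4. Psma6 (2623 to 3879) was highest in liver 3, Psma2 (2151 to 2898) in liver 6 and Psma4 (2274 to 3190) in liver 5. Thus 4 of 7 alpha subunits were highest in liver 4 and all 7 were above their own mean there. Psma5 lies on mouse chromosome 3, and its promoter at chr3:108256676-108256975 (GRCm38.p6, plus strand, RefSeq) is shown because this is the alpha subunit with the widest range. It held neither motif searched, described further on, and so has no capitals.
Psma5: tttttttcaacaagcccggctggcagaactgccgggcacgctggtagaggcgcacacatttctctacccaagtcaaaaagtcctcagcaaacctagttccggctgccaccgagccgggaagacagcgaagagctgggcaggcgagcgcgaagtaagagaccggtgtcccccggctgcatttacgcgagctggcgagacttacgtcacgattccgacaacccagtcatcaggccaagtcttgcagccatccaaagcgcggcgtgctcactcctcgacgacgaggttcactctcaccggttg

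The core beta subunits had the lowest median SD relative to the typical one, 0.743, against 0.855 over all 32 subunits. Psmb3, a structural beta subunit, had 3443, 3387, 3916, 3487, 3678, 3547, 3330 and 3510 in livers 1 to 8. This 1.18-fold range was the narrowest of the 32, at an SD 0.339 times the typical one (unadjusted p = 0.0026, adjusted p = 0.295 for lower variance, chi-square test over all probe sets). Psmb5, which carries the chymotrypsin-like site, had 2232, 2255, 2055, 2082, 1919, 2419, 2270 and 1970, a range of 1.26-fold, against 1.76-fold on its dimmer probe set. Its levels in liver 4 and liver 8 lay within the range of the other livers. The caspase-like subunit Psmb6 had its lowest signal, 1495, in liver 1 and its highest, 2120, in liver 6 (1.42-fold). The trypsin-like subunit Psmb7 had 1310 in liver 5 and 1926 in liver 4 (1.47-fold). The 3 remaining structural subunits ranged 1.55-fold (Psmb2, 850 to 1317), 1.55-fold (Psmb4, 3172 to 4927) and 1.57-fold (Psmb1, 1730 to 2717). Psmb2 and Psmb4 were highest in liver 4 and Psmb1 in liver 6. The promoters of the narrowest-ranging subunit and of the chymotrypsin-like subunit are shown for comparison with Psma5. Psmb3 is at chr11:97703184-97703483 (plus strand), with CCAAT in capitals, and Psmb5 at chr14:54617946-54618245 (minus strand), with TGACNNNGC in capitals (both GRCm38.p6, RefSeq).
Psmb3: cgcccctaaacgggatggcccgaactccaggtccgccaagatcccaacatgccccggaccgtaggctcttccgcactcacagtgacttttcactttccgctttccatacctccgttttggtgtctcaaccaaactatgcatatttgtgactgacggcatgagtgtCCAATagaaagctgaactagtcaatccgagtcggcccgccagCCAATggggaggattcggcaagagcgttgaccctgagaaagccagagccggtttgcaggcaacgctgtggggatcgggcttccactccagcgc
Psmb5: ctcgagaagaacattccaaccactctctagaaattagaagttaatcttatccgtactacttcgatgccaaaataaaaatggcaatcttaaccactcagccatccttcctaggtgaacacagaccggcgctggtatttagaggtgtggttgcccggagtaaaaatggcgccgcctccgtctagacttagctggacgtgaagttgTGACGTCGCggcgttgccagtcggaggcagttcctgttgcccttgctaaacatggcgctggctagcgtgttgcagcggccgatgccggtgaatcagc

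Each catalytic subunit had a narrower range than the interferon-inducible subunit that can replace it. Psmb8, the counterpart of Psmb5, ranged 17.6-fold, Psmb9, the counterpart of Psmb6, 13.9-fold, and Psmb10, the counterpart of Psmb7, 4.81-fold. All 3 passed the chi-square test for more than typical variance, against 11.3% of all tested probe sets. The sum of the signals of Psmb8, Psmb9, Psmb10 and the activator subunit Psme1 was highest in livers 4 (17139) and 8 (12940) and lowest in liver 2 (2316).

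The ATPases that were tested, 5 of 6, tended to be high in liver 4 and low in liver 5. Psmc6 had 3793, 4573, 3699, 4466, 2747, 3936, 3901 and 3783 in livers 1 to 8. Liver 5 stood below the others, which lay between 3699 and 4573. Psmc2 had 1750, 1710, 1560, 2132, 1263, 1526, 1617 and 1800, and Psmc5 1080, 1108, 935, 1455, 893, 1014, 963 and 1048. Both were lowest in liver 5 and highest in liver 4. Psmc1 (739 to 1101) and Psmc3 (811 to 1110) were also highest in liver 4 but lowest in livers 8 and 7. Liver 4 was thus the highest for 4 of 5 ATPases, the exception being Psmc6. Psmc6 is shown because its liver 5 value lay far from the others. Its promoter, at chr14:45329574-45329873 (GRCm38.p6, plus strand, RefSeq), holds TGACNNNGC on the opposite strand, in capitals.
Psmc6: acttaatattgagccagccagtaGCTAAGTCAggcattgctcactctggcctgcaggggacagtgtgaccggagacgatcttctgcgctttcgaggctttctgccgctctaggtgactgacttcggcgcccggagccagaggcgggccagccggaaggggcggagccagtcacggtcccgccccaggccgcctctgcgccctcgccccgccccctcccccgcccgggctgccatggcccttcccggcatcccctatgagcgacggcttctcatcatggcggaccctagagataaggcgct

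The lid and base class pools lid subunits, base subunits and assembly chaperones of the base. It was the most mixed class and held both the widest range of all and some of the narrowest. Psmd14, the deubiquitinase of the lid that strips ubiquitin chains from substrates, had 946, 897, 1055, 1335, 587, 1027, 963 and 1065 in livers 1 to 8. Its 2.27-fold range was the widest of the 32 subunits, with liver 4 highest and liver 5 lowest (unadjusted p = 0.0322, adjusted p = 0.198 for higher variance, chi-square test over all probe sets). Psmd7, the lid partner of Psmd14, had 823, 818, 928, 809, 973, 824, 866 and 853, a range of 1.20-fold with liver 5 highest and liver 4 lowest. These 2 neighbours in the complex therefore ran in opposite orders in their extreme livers. Psmd12 had a range of 2.20-fold, with 194 in liver 2 and 427 in liver 8. Psmd8 had a range of 1.75-fold, with 691 in liver 2 and 1213 in liver 4. Psmd13 ran from 619 to 904, Psmd6 from 1479 to 1981, Psmd3 from 1392 to 1878 and Psmd11 from 2238 to 2850. In the base, Psmd1, a scaffold, ran from 1351 to 2115, and Psmd4, a ubiquitin receptor, from 949 to 1525. The 3 assembly chaperones of the base ranged 1.64-fold (Psmd5, 410 to 674), 1.59-fold (Psmd9, 443 to 704) and 1.41-fold (Psmd10, 162 to 228). Psmd5 and Psmd9 were highest in liver 5, where Psmd14 was lowest. The promoter of Psmd14 at chr2:61711444-61711743 (GRCm38.p6, plus strand, RefSeq) is shown for the subunit with the widest range, with CCAAT on either strand in capitals.
Psmd14: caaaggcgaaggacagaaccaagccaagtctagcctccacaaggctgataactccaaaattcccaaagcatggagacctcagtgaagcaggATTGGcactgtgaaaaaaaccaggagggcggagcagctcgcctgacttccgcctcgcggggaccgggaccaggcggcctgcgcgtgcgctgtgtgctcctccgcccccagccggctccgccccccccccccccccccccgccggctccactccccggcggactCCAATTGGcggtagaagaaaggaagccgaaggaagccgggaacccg

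RefSeq promoters of 300 bases, from 250 before to 50 after the annotated start, were found for 29 of the 35 genes. They were searched on both strands for CCAAT, the box bound by nuclear factor Y, and for TGACNNNGC, a core of the antioxidant response element bound by Nfe2l1 and Nfe2l2. Nfe2l1 is the factor known to raise proteasome genes when proteasomes are inhibited. TGACNNNGC was found in 5 of 29 genes (17.2%), namely Psmb5, Psmb6, Psmc6, Psmd9 and Psmd12, against 14% of 27025 genes with a promoter in the table. CCAAT was found in 12 of 29 (41.4%), among them Psma1, Psma3, Psmb3, Psmd4 and Psmd14, against 41.1%. Of the 32 subunits' widest and narrowest, Psmd14 held 3 matches to CCAAT and Psmb3 held 2, so this letter match was at both ends of the range. The matches of Psmd14 at bases 255 to 259 and 258 to 262 of the window overlap each other on opposite strands.

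Over the 496 pairs of the 32 subunits, mean pairwise Pearson r across the 8 livers was 0.161, against 0.0051 over all pairs of tested genes. Of those pairs, 116 (23.4%) had an r over 0.5, against 13.5% of all gene pairs. These correlations share the same 8 arrays and are given as descriptions. Mean r was 0.507 within the ATPases (10 pairs), 0.475 within alpha subunits (21 pairs), 0.206 within beta subunits (21 pairs) and 0.0688 within lid and base subunits (78 pairs). Liver 4 carried much of this. Without it, the mean r of the 4 classes in that order was 0.138, 0.289, 0.121 and 0.0802, and 0.0483 over all 32. With any other single liver left out, the value for all 32 lay between 0.155 and 0.202. Between classes, mean r was 0.342 for alpha with ATPase and 0.337 for beta with ATPase subunits. It was 0.245 for alpha with beta, 0.193 for alpha with lid and base, and near 0 for lid and base with beta (-0.00088) and with ATPase subunits (0.0292). Inside the lid and base class, mean r was 0.150 over 28 pairs of lid subunits and 0.533 for Psmd1 with Psmd4. For the assembly chaperones it was 0.0486 over 3 pairs among themselves and -0.0653 with the other members.

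**Figure D3:**
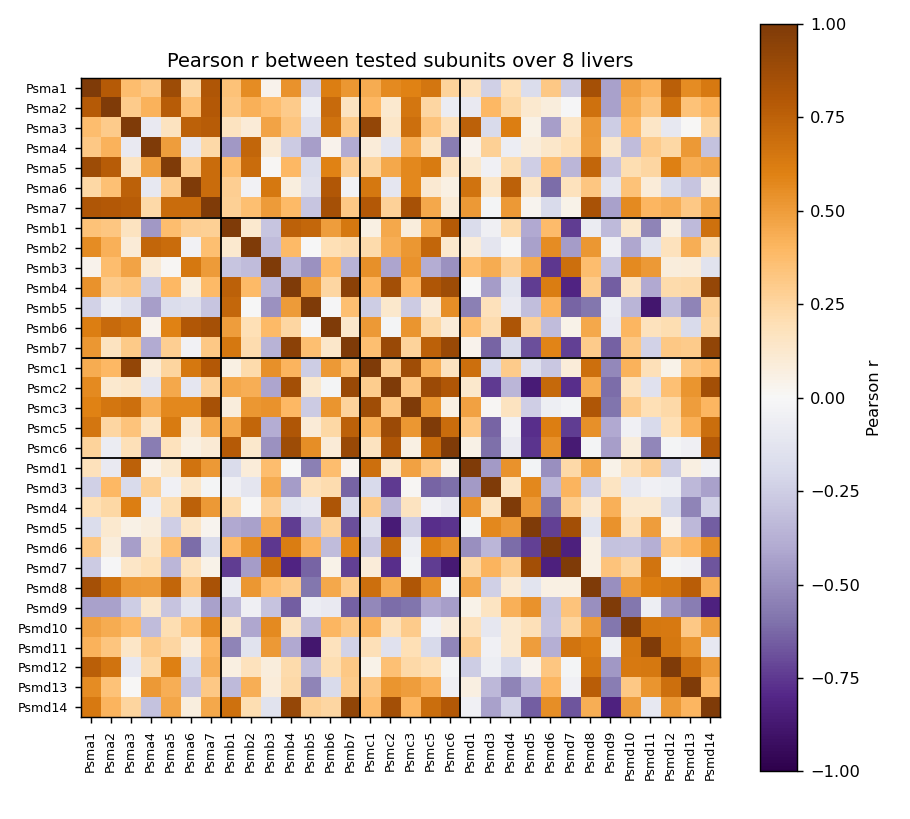
Pearson r over 8 livers between each pair of the 32 tested subunits, ordered by class (black lines). The alpha and ATPase blocks hold mostly positive values, and the lid and base block is mixed, from -0.829 (Psmd6 with Psmd7) to 0.853 (Psmd5 with Psmd7).

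The closest pairs lay both within and between classes. Psmb4 and Psmb7, both core beta, had an r of 0.949, Psmb7 and Psmd14 of 0.927, Psma3 and Psmc1 of 0.918 and Psmb4 and Psmd14 of 0.909. Psmb4, Psmb7, Psmc2, Psmc6 and Psmd14 were all lowest in liver 5. The most opposed pairs were Psmb5 with Psmd11 (r = -0.875), Psmc6 with Psmd7 (-0.864) and Psmc2 with Psmd5 (-0.856). Psmb5 and Psmd11 each had another tested probe set that ran against the one used here, so their value belongs to these probe sets. Against the mean of the other subunits, 14 of 32 had an r over 0.5, led by Psma7 (0.932) and Psma1 (0.922). Another 5 had an r below 0, namely Psmb5, Psmd3, Psmd5, Psmd7 and Psmd9, the last at -0.570. Of these 5, 4 belong to the lid, with 8 tested genes, or the base chaperones, with 3. The other one, Psmb5, had an r of 0.038 to this mean on its dimmer probe set. The share of all tested genes with such r to this mean was not worked out, so these counts are descriptions only. Several of the probe sets behind the closest pairs, including those of Psmb4, Psmb7 and Psma3, carry a suffix that marks sequences shared with other transcripts. Leaving out all probe sets with a letter suffix of any kind dropped Psma3, Psmb4, Psmb7, Psmc3, Psmd9 and Psmd12. It also moved Psmb5 to its dimmer probe set, which ran against the brighter one. With both changes, mean r was 0.0282 over the 5 beta subunits that remained and 0.173 over the 26 subunits of all classes that remained.

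Probe sets of the same subunit often disagreed. Over the 8 pairs of tested probe sets of the same subunit, the median r across livers was -0.055, against 0.242 over 886 such pairs of all genes. The Psmc3 probe sets correlated at 0.283 to 0.576. The probe sets of Psmb1 (r = -0.477) and Psmb5 (-0.393) ran against each other, and of the 3 Psmd11 pairs 2 did so (-0.701 and -0.466). For Psmb5, the dimmer probe set ranged from 327 in liver 2 to 574 in liver 5 where the brighter one was lowest. For these subunits the order of the livers depends on the probe set.

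Liver 4 was the highest liver for 15 of 32 subunits (46.9%), against 17.7% of all tested genes. It was above the mean of 26 of 32, with a median of 0.23 on the log2 scale, against -0.04 over all tested genes. By class, liver 4 was highest for 4 of 7 alpha, 3 of 7 beta, 4 of 5 ATPase and 4 of 13 lid and base subunits. A class score was formed as the mean of its members' log2 signals after each was centred on its 8-liver mean. In liver 4 the score was 0.32 for alpha, 0.16 for beta, 0.33 for ATPase and 0.11 for lid and base subunits. With arrays scaled to a common median, which moved whole arrays by -0.10 to 0.11, the liver 4 scores were 0.24, 0.08, 0.25 and 0.03, and 10 of 32 subunits were highest there, against 12.7% of all tested genes. The beta score was then highest in liver 6 and lowest in liver 8, and the lid and base score was highest in liver 3. Without the filter on dim probe sets, which brings in Psmc4 and Psmd2, the ATPase score was highest in liver 3 and lowest in liver 2, and the lid and base score was highest in liver 5. With the first principal component of all probe sets removed, 3 of 32 were highest in liver 4, against 4.88% of all genes.

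Other measures also stood apart in liver 4. Summed signals of the 10 macrophage and Kupffer cell markers on the array ran from 4101 in liver 7 to 21802 in liver 4, with 14611 in liver 8 and at most 7994 elsewhere. None was listed at 0. Of the 8 that were tested all were highest in liver 4, against 17.7% of all tested genes. The filter used mean signals that include liver 4, so a marker could pass through its liver 4 signal. Of the markers too dim to be tested, Marco was highest in liver 4 (83.3) and Adgre1 in liver 8 (267, against 247 in liver 4). The array also had the lowest ratio of 3′ to 5′ beta-actin signal, 1.24, where the other arrays lay between 1.41 and 1.74. Its Gapdh ratio of 3′ to 5′ signal, 0.874, lay within the range of the other arrays, 0.806 to 0.969. The part of the markers and of the beta-actin ratio in the liver 4 values was not tested. In whole liver RNA more cells of a type cannot be told apart from more RNA per cell.

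**Figure D4:**
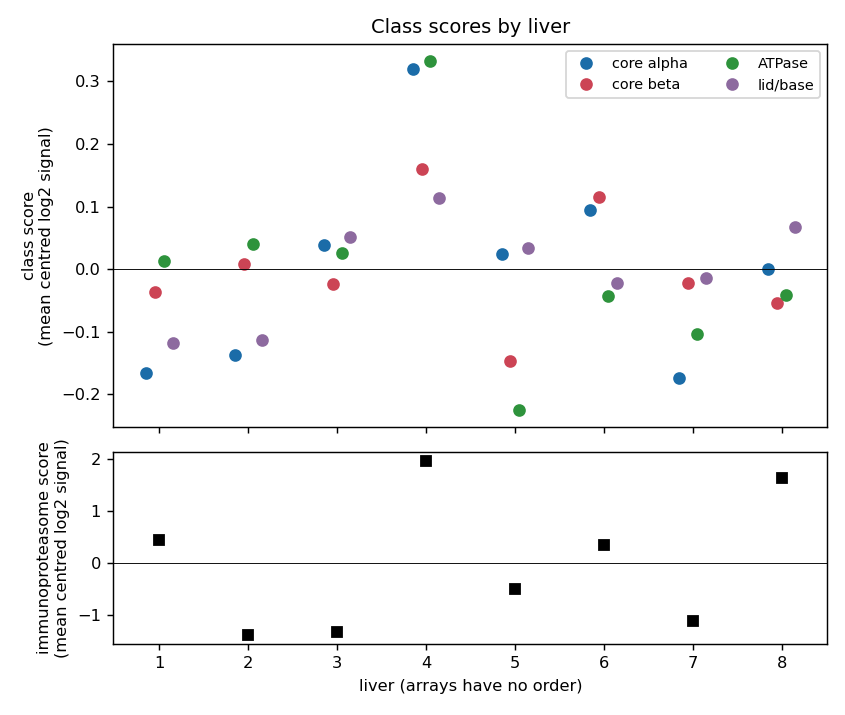
Class scores (mean centred log2 signal) of the 4 subunit classes by liver, above, and the score of Psmb8, Psmb9 and Psmb10, below. Liver 4 has the highest point of each class, at 0.11 to 0.33 (with median scaling only for alpha and ATPase), and liver 5 the lowest beta and ATPase points, at -0.15 and -0.22 (with median scaling only for ATPase), whereas the immunoproteasome score is high in both liver 4 (1.96) and liver 8 (1.62).

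Liver 5 split the subunits. It was lowest for 8 of 32 (25%), against 16% of all tested genes, and highest for 5 (15.6%), against 19.5%. The 8 were Psmb1, Psmb4, Psmb5, Psmb7, Psmc2, Psmc5, Psmc6 and Psmd14, and the 5 were Psma4, Psmd4, Psmd5, Psmd7 and Psmd9. For Psmb5 and Psmb1 this held for the brighter probe set only. The dimmer one of Psmb5 was highest in liver 5 (574), and that of Psmb1 had 613 there and was lowest in liver 2 (432). Its class score was -0.22 for ATPases and -0.15 for beta subunits, and 0.02 for alpha and 0.03 for lid and base subunits. The number lowest in liver 5 was also 8 with median scaling (13.8% of all tested genes) and quantile normalization of the arrays (15.2%). It was 8 too with the mean of probe sets per gene (16.4%) and with the first principal component removed (18.7%). With the mean of probe sets, the liver 5 score was -0.07 for beta subunits and -0.29 for ATPases. Changes of the floor could not alter it, because all subunit signals lay above the floors. Leaving off the filter only added Psmc4 and Psmd2, and the number stayed at 8 (13.4%). The Gapdh ratio of 3′ to 5′ signal was highest on this array, at 0.969 against 0.806 to 0.886 on the others. The beta-actin ratio of this array, 1.66, lay within the range of the others, 1.24 to 1.74. The part of the Gapdh ratio in the liver 5 values was not tested.

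To ask which constitutive subunits followed the immunoproteasome, each tested probe set was regressed with limma on the mean centred log2 signal of Psmb8, Psmb9 and Psmb10, a test added after the data had been seen. Psma5 rose by 0.22 ± 0.052 (SE, n = 8 livers) on the log2 scale per 2-fold higher immunoproteasome signal (limma adjusted p = 0.0298, r = 0.884). The other 31 did not pass. By this test 1 of 32 subunits rose and 0 fell, against 3.61% and 1.47% of all probe sets. At an unadjusted p under 0.05, limma gave 5 that rose, namely Psma5, Psma1, Psmb2, Psmd8 and Psmd12, against 8.58%, and 0 that fell, against 9.39%. Slopes were above 0 for 22 of 32 subunits (68.8%), against 45.8% of all tested genes. Psma1 had a slope of 0.17 ± 0.058 (limma adjusted p = 0.132) and Psmb3 of -0.01 ± 0.039 (limma adjusted p = 0.941). The call of Psma5 was lost when any single one of livers 2, 3, 4, 7 and 8 was left out (limma adjusted p from 0.0638 to 0.233), and with median scaling (limma adjusted p = 0.0676). It was also lost without the filter on dim probe sets (limma adjusted p = 0.0501), without livers 4 and 8 together (0.711) and after removing the first principal component (0.669). Its slope lay between 0.18 and 0.24 in every one of these settings. The macrophage markers rose with the immunoproteasome genes too, 6 of the 8 tested, and their part in the Psma5 slope was not tested.

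**Figure D5:**
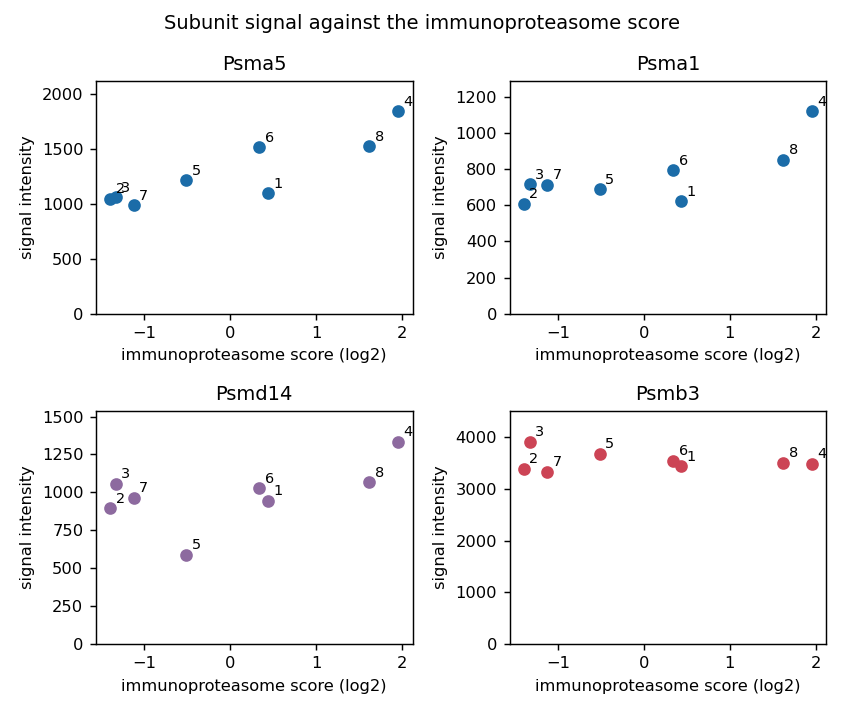
Signal intensity of Psma5, Psma1, Psmd14 and Psmb3 in each liver (numbered points) against the immunoproteasome score, the mean centred log2 signal of Psmb8, Psmb9 and Psmb10. Psma5 is lowest in livers 2, 3 and 7 and highest in liver 4, and Psmb3 stays between 3330 and 3916 across all scores.

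Of 12 assembly factors and partners on the array, 0 varied more than typical by the chi-square test, against 11.3% of all tested probe sets, and their median range was 1.56-fold. Pomp, which matures the core particle, ranged 2.14-fold, from 1487 to 3188 with liver 8 highest. Txnl1, a thioredoxin-like protein that binds the cap, ranged 1.92-fold, Uchl5, a deubiquitinase of the cap, 1.82-fold and Usp14, the other such deubiquitinase, 1.76-fold. Of 6 ubiquitin and shuttling genes tested, 1 varied more than typical, a share that can be read only against the same 11.3%. This was Ufd1, a partner of the segregase Vcp, with a range of 3.83-fold, from 130 to 499.7 (adjusted p = 5.06e-05, chi-square test), whereas Vcp itself ran from 2941 to 3569. None of the 5 tested regulators passed. Nfe2l1 ran from 1261 to 1836 and was highest in liver 5, and Nfe2l2 from 1034 to 1294. Among 15 tested genes of the signalosome and of translation factor eIF3, complexes built like the lid, 1 varied more than typical, Eif3a, from 430 to 859 (adjusted p = 0.0310, chi-square test).

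Among the tested genes that were not subunits, those closest to the mean of the 32 subunits over the 8 livers were Cct7, a subunit of the cytosolic chaperonin (r = 0.965), and Aldoa, a glycolytic aldolase (0.953). The next were Lsg1 (0.943), Nmt1 (0.939), Cope (0.926), Anxa2 (0.918), Mycbp2 (0.917), Tmsb10 (0.910), Lars (0.909) and Smc4 (0.900). All 10 were highest in liver 4, against 17.7% of all tested genes. The subunits' mean that they were picked to follow also peaked in liver 4, so this peak was built into their choice.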

How the data were processed

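Liver RNA of 8 Ames dwarf mice was measured on 1 array each. The authors deposited 1 linear intensity per probe set and array for 12488 probe sets. Array and scanner are named per the labels; for the image software and scaling target, a name or value was not given in the sources used here. Trimmed means differed by 0.009% between arrays, so the deposited intensities were used as already scaled. Values under the 10th percentile, 11.2, were set to it before log2. The 66 control probe sets were left out, and symbols came from the platform annotation, where 10833 other probe sets had 1 symbol, 396 several and 1193 none.

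Variances were tested against a loess curve of variance on mean signal (span 0.3, 7 degrees of freedom) and with the variance test of limma 3.58.1 in R 4.3.3. Both tests and the regression were tested on simulated data in which all unchanged probe sets had the typical variance. The changed probe sets had an SD 3 times or a 3rd of the typical one, or a slope of 1 on the log2 scale. There the tests for higher variance and the regression found most of the changed probe sets, and the test for lower variance found few. The largest values among the subunits were an SD 1.48 times the typical one (Psmd14) and a slope of 0.22 (Psma5). How many changes of that size the tests would find was not measured. Adjusted p-values used Benjamini-Hochberg over all 6211 tested probe sets, at a threshold of 0.05. The members and lists were chosen with earlier results of these data known. All subunits found by the symbol rule are named, and beside them members of the fixed lists, those with the largest fold range first, and the 10 other genes with the highest r to the subunits' mean. The number of arrays limits the precision, and p-values cover only the spread between these 8 mice. Immunoproteasome genes served only as a measure to compare with.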

Additional observations from a re-analysis of the deposited data

Results flagged for a closer look

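Among 36 sets of 8 values, 32 subunits and 4 class scores, 3 had a liver far from the rest by Dixon's ratio at its 95% critical value, and chance flags about 1 in 20 sets. Psmb7 had its lowest signal, 1310, in liver 5, apart from the other livers. Psmc6 was lowest in liver 5 as well, at 2747. Psmc5 was highest in liver 4, at 1455.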

How the results depend on the processing

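The count of 0 subunits with more than typical variance by the chi-square test held in all alternatives run, including a loess span of 0.6. The count of 0 with less than typical variance held as well. In the main setting, the test for lower variance and the limma test for higher variance passed 0% of all probe sets. Their counts of 0 subunits therefore say nothing particular about the subunits. The count of 1 subunit that rose with the immunoproteasome was 0 with median scaling, without the filter on dim probe sets, without livers 4 and 8 and after removing the first principal component, and 0 to 1 with single livers left out. Leaving out single livers gave a mean pairwise r of 0.0483 to 0.202 for all subunits, 0.289 to 0.548 for alpha, 0.121 to 0.250 for beta, 0.138 to 0.605 for ATPase and 0.0317 to 0.0888 for lid and base subunits. Median ranges were then 1.40 to 1.52-fold for all subunits, 1.40 to 1.48-fold for alpha, 1.28 to 1.47-fold for beta, 1.40 to 1.63-fold for ATPase and 1.41 to 1.57-fold for lid and base subunits. The alpha median range was 1.58-fold with median scaling and 1.38-fold with the first principal component removed, and that of all subunits was 1.38-fold both with that component removed and without livers 4 and 8. Mean r of beta subunits was 0.0282 without probe sets that carry a letter suffix. Among beta subunits this setting drops Psmb4 and Psmb7 and also changes the probe set of Psmb5. The number of subunits highest in liver 4 was 3 with the first principal component removed. With another single liver left out it was 15 to 18, but that step could not lower it while all 32 subunits stayed tested. The cause of these shifts was not tested. No paired analysis was possible because all samples form 1 group. Signals near background could not be judged without detection calls, and 8 livers leave each r imprecise.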
